A study of Mus musculus with 24 samples.

Results

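Collagen genes were followed through RNA sequencing of the distal jejunum of 24 mice. They were taken by symbol (Col, a number, the letter a and a number) from the deposited FPKM table, and had to reach 10 counts in 3 or more of the 24 libraries. Of 43 such symbols, 41 met the rule. The other two were Col2a1, with at most 11 counts in a library, and Col10a1, with at most 5. The 41 genes fall into 10 fibrillar types, 9 types of basement membranes, 6 type VI chains, 8 FACIT types (which attach to fibrils), 4 transmembrane types, 2 short-chain types and 2 others.

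The 8 groups of 3 mice were males and females, each wild type or Ptk6-/-, that drank regular water (controls) or 100 mM succinate in water for 7 days, with 1 library per mouse. Ptk6 encodes an intracellular tyrosine kinase of epithelia, and its disruption in these mice was germline, so that every tissue lacked it. All mice were on a C57BL/6 background, were age-matched at 9 to 11 weeks at the end of the experiment, and came from different litters of the same colony. Replicates are separate mice, numbered as labelled. Whole jejunal tissue was sequenced, so fewer cells of a type and less RNA per cell cannot be told apart.

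Collagens are the main structural proteins of connective tissue. Chains with a glycine at the start of each amino acid triplet wind into a triple helix. Fibrillar types such as I, III and V have a long unbroken helix and pack side by side into the fibrils that give the submucosa and lamina propria their strength. Type IV chains have a helix with many interruptions and join into the flat network of the basement membrane under the epithelium and around smooth muscle and vessels. Types XV and XVIII border that network, type VII anchors it, and type VI forms beaded filaments between the basement membrane and the fibrils. In the gut, fibroblasts and smooth muscle cells are known as main sources of the fibrillar chains.

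The difference between both kinds of helix can be read in the coding exons. The following stretches of 90 bases are shown because they set an unbroken helix beside an interrupted one, and capitals mark GGN codons, which encode glycine. They are coding sequence of GENCODE transcripts on GRCm38, and codons are counted from 1 at the start codon. The Col1a1 stretch covers codons 168 to 197, that of Col3a1 codons 164 to 193, that of Col4a1 codons 148 to 177, and that of Col4a2 codons 157 to 186.
Col1a1: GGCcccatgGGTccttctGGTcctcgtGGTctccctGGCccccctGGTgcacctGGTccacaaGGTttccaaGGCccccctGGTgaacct
Col3a1: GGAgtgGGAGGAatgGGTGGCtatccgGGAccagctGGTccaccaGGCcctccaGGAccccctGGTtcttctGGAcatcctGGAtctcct
Col4a1: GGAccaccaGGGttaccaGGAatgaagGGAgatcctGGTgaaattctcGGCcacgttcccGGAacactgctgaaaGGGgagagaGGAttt
Col4a2: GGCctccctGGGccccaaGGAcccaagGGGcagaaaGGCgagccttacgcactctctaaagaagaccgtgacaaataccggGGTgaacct

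In Col1a1 a GGN codon opened each of the 10 triplets shown. In Col4a1 and Col4a2 the spacing broke within the stretch. Over the whole coding sequence, the longest unbroken run was 338 triplets in Col1a1, 344 in Col3a1 and 339 in Col1a2, but 40 in Col4a1 and 66 in Col4a2. Col4a1 held 22 separate runs of at least 5 triplets and Col4a2 held 24. The fibrillar genes had a median longest run of 338 triplets (range 216 to 344) and the basement membrane genes one of 42 (range 30 to 75), so the ranges of these classes did not overlap.

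**Figure D1:**
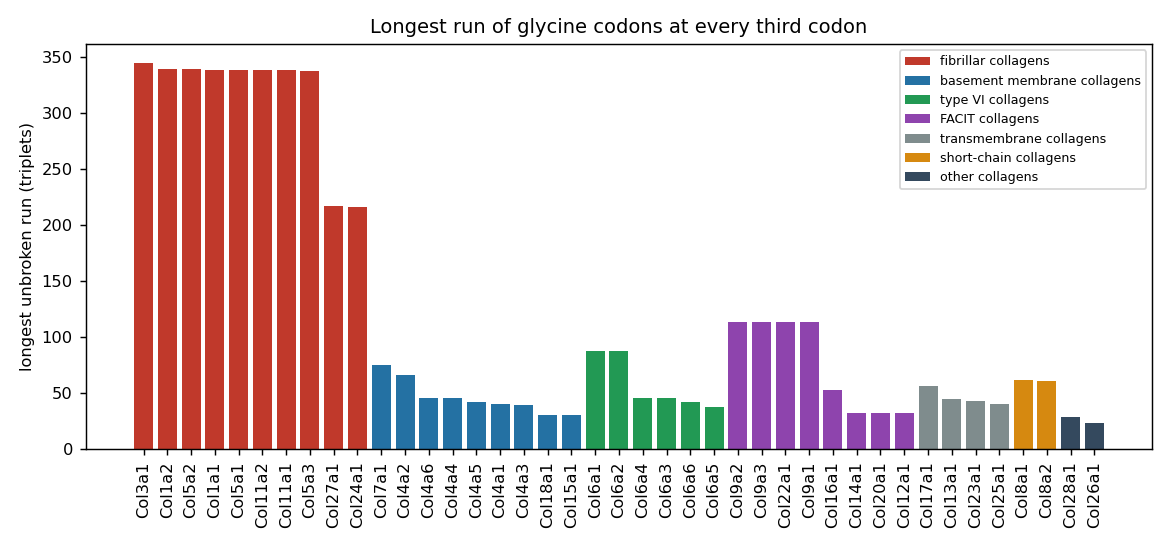
Longest unbroken run of GGN codons at the start of each codon triplet (y axis, triplets) in the coding sequence of the 41 collagen genes, coloured by class. The 10 fibrillar genes, at 216 to 344 triplets, stand above every other class, and the 9 basement membrane genes lie between 30 and 75.

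Positions are those of the deposited table, and the build that the submitters' processing notes name is GRCm39. Col1a1 lies at chr11:94827050-94843868 on the plus strand, Col1a2 at chr6:4504814-4541544 and Col3a1 at chr1:45350698-45388866, both also on the plus strand. Col4a1 (chr8:11248423-11362826, minus strand) and Col4a2 (chr8:11362805-11499287, plus strand) start head to head, and their annotated spans overlap by 22 bases. In the RefSeq promoter table, whose build is GRCm38.p6, this shared stretch is at chr8:11312805-11312826 on the plus strand.
Col4a1 and Col4a2: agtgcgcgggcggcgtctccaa
In the 250 bases before the start, GGGCGG on either strand was found in 21 of the 33 collagen genes of that table (63.6%) and in 35.4% of all 27025 genes. CCAAT was found in 39.4% against 37.5%, and TATAAA in 12.1% against 14.3%. None of the 8 basement membrane genes in the table held TATAAA, and 2 of the 8 fibrillar genes did.

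Levels between genes are compared as FPKM, fragments scaled to transcript length and to library depth, as deposited. Col6a1, a chain of type VI, had the highest mean over the 24 libraries, at 23.4 FPKM. It was followed by Col3a1, the chain of type III fibrils, at 15.5 FPKM, and by Col6a2 at 14.2 FPKM. The type IV chains Col4a1 and Col4a2 averaged 12.1 and 11.03 FPKM, and the type I chains Col1a1 and Col1a2 averaged 11.96 and 5.37 FPKM. Col18a1, whose protein carries the endostatin fragment, averaged 4.29 FPKM. A mean of 1 FPKM was reached by 19 genes, 11 stayed under 0.1 FPKM, and 26 had at least 10 counts in all 24 libraries.

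**Figure D2:**
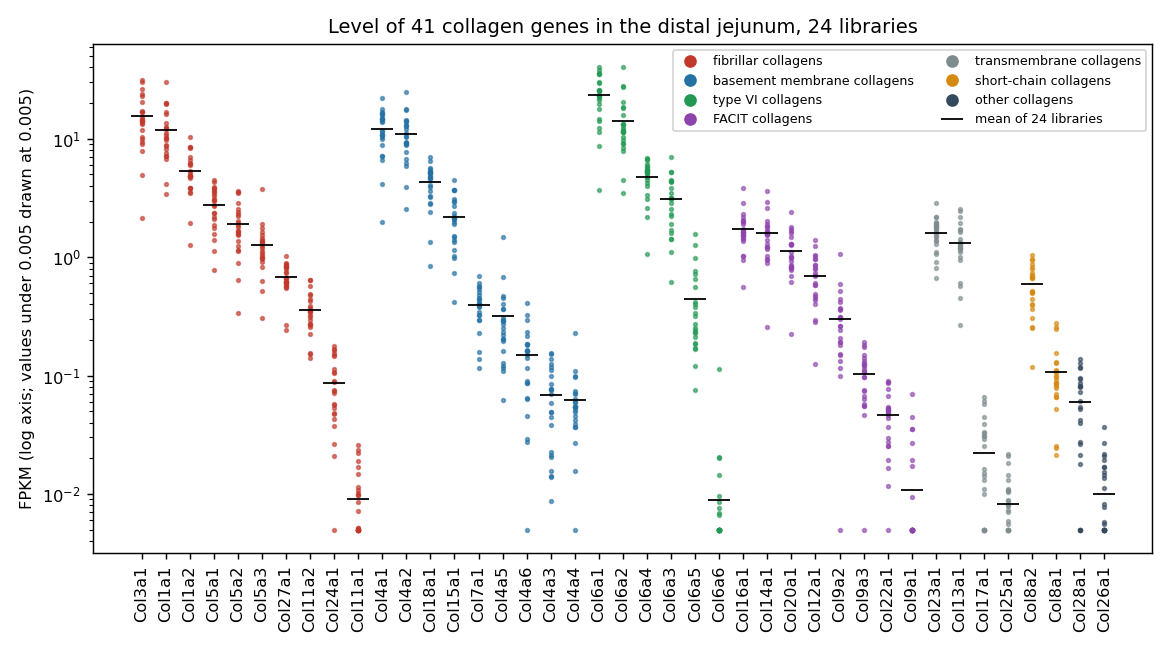
FPKM (log axis; values under 0.005 drawn at 0.005) of the 41 collagen genes, coloured by class, with 1 point for each of 24 libraries and a bar for their mean. Means run from 23.4 FPKM for Col6a1 to under 0.1 FPKM for 11 genes, and the highest genes are type VI, fibrillar and basement membrane genes.

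The type IV network is built mainly from the chains of Col4a1 and Col4a2. A ratio of FPKM within a library removes scaling shared by its genes, so a smaller spread is not particular to partner chains. Col1a1 over Col3a1, of different collagens, also varied less than Col1a1 (coefficients of variation 38.3% and 50.3%). The ratio of Col4a1 to Col4a2 had a median of 1.15 (range 0.642 to 1.41), with a coefficient of variation of 16.2% over 24 libraries against 39.0% for Col4a1. The ratio of Col1a1 to Col1a2, which are joined in type I collagen, had a median of 2.01 and a range of 1.48 to 5.09. The highest ratio of Col1a1 to Col1a2 and the lowest of Col4a1 to Col4a2 came from the same library, replicate 3 of the female Ptk6-/- controls. In that library Col1a1 (211 CPM) and Col4a2 (196 CPM) were above, and Col6a3 (33.4 CPM) and Col15a1 (14.6 CPM) below, both other mice of its group.

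Facts of the libraries bear on all results. Total counts ran from 8080321 to 52824743 (median 43017686.5), and collagen genes took 0.0416% to 0.219% of them. Ptk6 had 7 to 61 counts in the 12 Ptk6-/- libraries and 284 to 2405 in the 12 wild type libraries, as their labels state. Some libraries stood apart. Replicate 1 of the succinate-treated male Ptk6-/- mice had the lowest total, and ribosomal Rn18s-rs5 took 29.7% of its counts. In the male wild type controls, the same gene took 51.2% of replicate 1. In replicate 2 of the succinate-treated female wild type mice, 7 heart muscle markers summed to 15573 CPM against 16.8 to 209 CPM in every other library, 6 endothelial markers to 332 CPM against 71.0 to 115 CPM, and 8 epithelial markers to the lowest value, 7889 CPM. Vil1 and Cdx2, which mark intestinal epithelium, had counts in every library (at least 4982 and 477).

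Groups were compared with edgeR (quasi-likelihood, TMM normalization), with p-values adjusted over all genes tested by the Benjamini-Hochberg method. A gene was called at an adjusted p under 0.05 and a fold change of at least 2. Values for single libraries are CPM, counts scaled to TMM-normalized library size over all 24 libraries, and are given for replicates 1, 2 and 3 in turn. In the 13 comparisons made (10 of a pair of groups and 3 interactions) no collagen gene was called. By voom, 1, 4, 1 and 3 collagen genes were called for the genotype effect in male controls, female controls and treated males and for succinate in wild type males. DESeq2 called 2, both for succinate in wild type females, and limma on FPKM called none. The shares of all genes called by these alternatives are not given here, so their counts have no background to be read against.

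The first question was what loss of Ptk6 did in untreated males. Col6a3 and the type IV chains Col4a1 and Col4a2 were higher in the Ptk6-/- mice, with adjusted p-values under 0.05 but changes below 2-fold. Col6a3, the large chain that completes type VI collagen, had 38.7, 42.7 and 39.3 CPM in the wild type males and 96.0, 65.2 and 71.8 CPM in the Ptk6-/- males. The groups did not overlap, and the log2 fold change was 0.93 (SE 0.16, edgeR adjusted p = 0.0310). Gm36970 overlaps it on the same strand by 1859 bases, and reads of such genes may be split between them.

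Col4a1 had 88.8, 103 and 103 CPM in wild type males and 144, 136 and 166 CPM in Ptk6-/- males, a log2 fold change of 0.58 (SE 0.12, edgeR adjusted p = 0.0389). Col4a2 had 74.99, 77.4 and 77.9 CPM against 106, 104 and 129 CPM, a log2 fold change of 0.54 (SE 0.12, edgeR adjusted p = 0.0461). For both chains every Ptk6-/- male lay above every wild type male. Col4a1 also overlaps Gm15418 on the other strand and Gm44716 on its own.

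The remaining abundant genes differed less. Col18a1 had 27.0, 41.5 and 44.3 CPM in wild type males and 51.7, 44.3 and 52.9 CPM in Ptk6-/- males (log2 fold change 0.39, SE 0.17, edgeR adjusted p = 0.196), with the highest wild type and the lowest Ptk6-/- mouse nearly level. Col1a1 had 64.1, 79.8 and 69.3 CPM against 90.1, 83.1 and 89.6 CPM (log2 fold change 0.29, edgeR adjusted p = 0.159). Col1a2 had 69.8, 76.0 and 73.8 CPM against 99.4, 74.9 and 80.4 CPM, and Col3a1 had 139, 187 and 179 CPM against 259, 145 and 185 CPM. The groups overlapped for both Col1a2 and Col3a1. Among fibrillar genes the smallest p belonged to Col5a1, which nucleates type I fibrils, with 28.1, 29.2 and 25.9 CPM against 44.3, 32.7 and 39.1 CPM (log2 fold change 0.46, SE 0.15, edgeR adjusted p = 0.0966).

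Of 35 collagen genes tested in male controls, 29 were higher and 6 lower in the Ptk6-/- mice, where 51.3% of all genes were higher. None was called, where 0.739% of the 19218 genes tested were. At an unadjusted p under 0.05 stood 9 of the 35, all higher, against 25.2% of all genes. Higher with no overlap between the groups were 11 of 35, against 16.5% of all genes, and lower with no overlap were 0, against 14.9%. All 9 basement membrane genes were higher, with a median log2 fold change of 0.54, and 7 of 9 fibrillar genes were, with a median of 0.21. With any 1 library left out these medians were 0.35 to 0.60 and 0.06 to 0.32. The median over all genes tested was 0.02.

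Other genes of the matrix were counted against the same background (51.3% of all genes higher, 16.5% higher with no overlap, 0.739% called). Of 15 partners of type IV collagen in the basement membrane (laminin chains, nidogens, perlecan and agrin), all 15 were higher and 9 did not overlap. Lama3, a chain of epithelial laminin, was called (log2 fold change 1.002, SE 0.16, edgeR adjusted p = 0.0300). The nidogens Nid1 and Nid2, which link laminin to type IV collagen, had log2 fold changes of 0.86 and 0.83 with adjusted p = 0.0230 and 0.0404, below 2-fold. Of 12 genes for procollagen processing and cross-linking, 9 were higher and none was called, nor was any of 20 genes for modification and folding, of which 11 were higher, of 11 for degradation (9 higher), of 8 collagen receptors (7 higher) or of 12 genes of the fibril-associated matrix (11 higher). Upk3b, a marker of the mesothelium that covers the gut, was called too (log2 fold change 1.56, edgeR adjusted p = 0.0400). It is 1 of 5 mesothelial and serosal markers listed, and the directions of the others are not given here.

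Collagen genes are long, and the libraries differed in how counts moved with gene length. The slope of log2 CPM on log2 length, relative to the mean library, was 0.083 to 0.121 in the male Ptk6-/- controls and -0.060 to 0.006 in the male wild type controls. With an offset for that trend the median of the fibrillar genes was -0.06 and that of the basement membrane genes 0.34. With limma on log2(FPKM + 0.1) they were 0.64 and 0.90. In FPKM replicate 1 of the wild type males stood far lower than in CPM, with Col4a1 at 4.13 FPKM against 10.96 and 10.8 FPKM in replicates 2 and 3. The part of this library in the FPKM medians was not tested. With the length offset Col6a3, Col4a1 and Col4a2 had log2 fold changes of 0.65, 0.37 and 0.35 with adjusted p = 0.0775, 0.154 and 0.179 by edgeR. Fibroblast markers summed to 499 to 552 CPM in wild type and 448 to 501 CPM in Ptk6-/- males, and endothelial markers to 74.7 to 99.4 CPM and 98.8 to 115 CPM. The fibroblast sum weighs Gsn most, which reached 41646 counts in a library. Pdgfra and Pdgfrb, at most 2918 and 1785 counts, peaked in male Ptk6-/- controls, and no other fibroblast marker did. So the sum does not give the direction of each marker. The part of fibroblast or endothelial markers in the result was not tested.

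**Figure D3:**
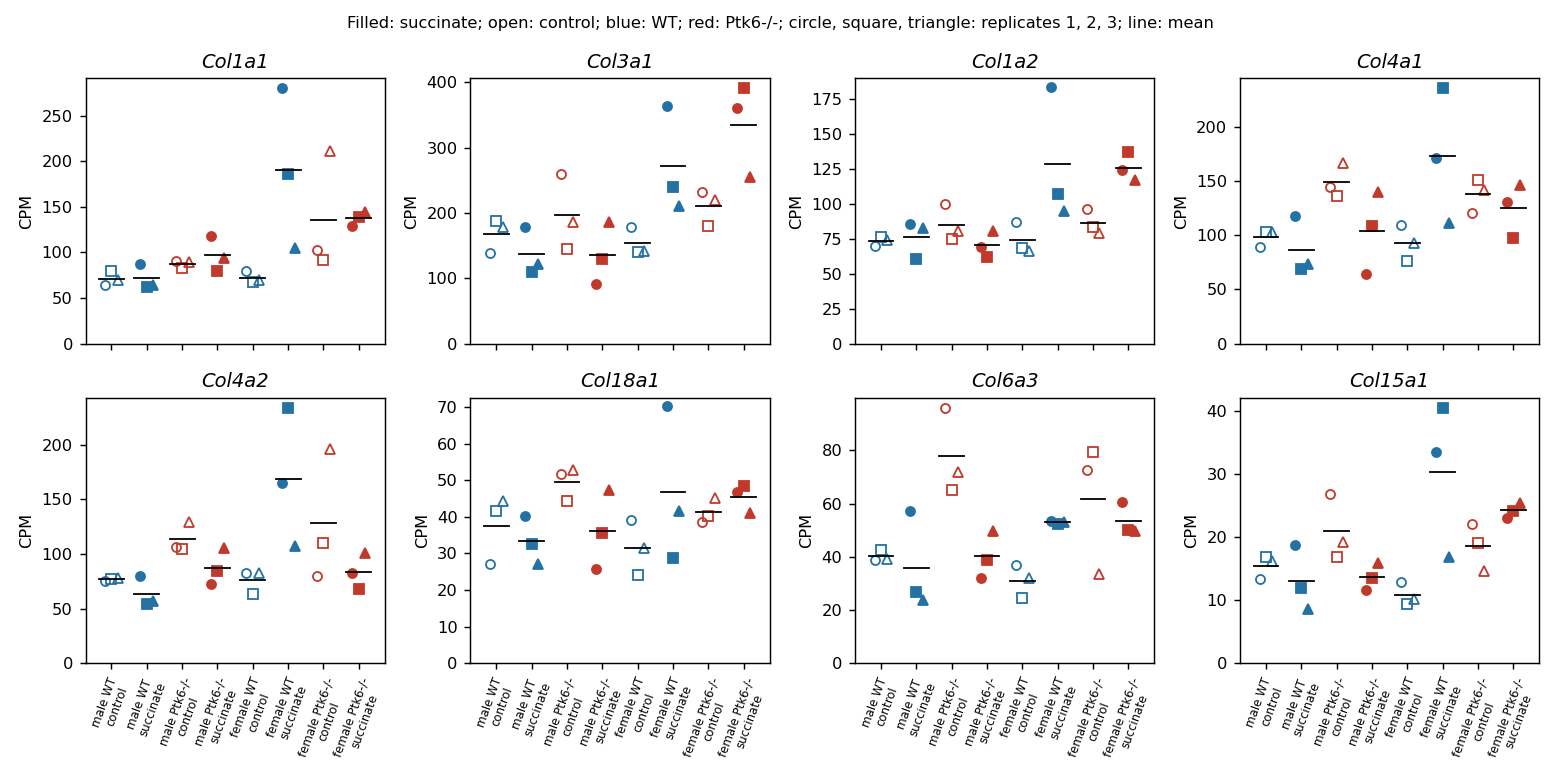
CPM (y axes, from 0) of 8 collagen genes in the 8 groups, with 1 symbol per mouse and a line for the group mean, n = 3. Col4a1, Col4a2 and Col6a3 separate the male controls by genotype, and Col1a1 reaches 279.9 CPM in a succinate-treated female wild type mouse.

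In untreated females most collagen genes were again higher in the Ptk6-/- mice, with more spread between them. Col15a1, of the zone between basement membrane and fibrils, had 12.8, 9.39 and 10.2 CPM in wild type and 22.1, 19.0 and 14.6 CPM in Ptk6-/- females, with no overlap (log2 fold change 0.82, SE 0.26, edgeR adjusted p = 0.372). Col1a1 had 80.0, 67.2 and 69.3 CPM against 103, 91.9 and 211 CPM (log2 fold change 0.94, SE 0.34, edgeR adjusted p = 0.397). For Col1a1 the groups did not overlap, and replicate 3 of the Ptk6-/- females lay far above the others.

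Col4a1 had 109, 76.4 and 92.4 CPM in wild type and 120.1, 150.4 and 142 CPM in Ptk6-/- females, with no overlap (log2 fold change 0.60, SE 0.23). Col4a2 had 82.8, 63.7 and 82.1 CPM against 79.8, 110.4 and 196 CPM, which overlapped. Col6a3 had 36.8, 24.4 and 31.8 CPM against 72.6, 79.4 and 33.4 CPM. Here replicate 3 of the Ptk6-/- females lay with the wild type mice, and the log2 fold change of 1.04 (SE 0.36) had an edgeR adjusted p = 0.385.

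Of Col3a1, Col1a2 and Col18a1, the first did not overlap between the groups and the others did. Col3a1 had 179, 141 and 141 CPM in wild type and 232, 180.2 and 220.4 CPM in Ptk6-/- females. Col1a2 had 87.2, 68.2 and 65.9 CPM against 96.0, 83.1 and 78.7 CPM, and Col18a1 had 39.1, 24.2 and 31.4 CPM against 38.7, 40.3 and 45.3 CPM.

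Of 37 collagen genes tested in female controls, 26 were higher and 11 lower in the Ptk6-/- mice (53% of all genes were higher), and none was called, against 0.0158% of all genes. Without overlap, 9 of 37 lay higher, against 8.51% of all genes, and 3 lay lower, against 10.3%. At an unadjusted p under 0.05, 8 were higher and 2 lower, against 11.1% of all genes. The lung marker Scgb1a1 was called (log2 fold change 11.45, edgeR adjusted p = 0.0211), and its part in the collagen values was not tested. It is 1 of 6 lung markers listed and had 0 counts in 16 of the 24 libraries. The directions of the other lung markers are not given here. Medians were 0.42 for 9 fibrillar and 0.60 for 9 basement membrane genes, against 0.04 for all genes tested. Without replicate 3 of the Ptk6-/- females, Col6a3, Col6a5 and Col12a1 were called, all higher (log2 fold changes 1.35, 1.01 and 1.04, edgeR adjusted p = 0.0275, 0.0446 and 0.0430). That library had a length slope of -0.088, against 0.065 and 0.105 in the other two of its group, and the part of this in the calls was not tested. The share of all genes called without that library is not given here. The difference of the genotype effect between sexes, tested as an interaction, gave no call among 37 collagen genes (0% of all genes), with 1 at an unadjusted p under 0.05 (4.64% of all genes) and 22 above 0 (53.4%). Its smallest p in each class was for Col1a1 (log2 0.65, SE 0.36) and Col7a1 (log2 -0.90, SE 0.51), both with adjusted p = 0.999 by edgeR.

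Col20a1, a FACIT collagen, separated the genotypes in 3 of 4 comparisons. It had 3.40, 6.31 and 5.37 CPM in wild type and 7.63, 10.6 and 10.3 CPM in Ptk6-/- male controls, and 6.54, 6.003 and 7.11 CPM against 9.61, 11.2 and 20.3 CPM in the female controls. After succinate it had 4.82, 6.11 and 5.91 CPM in wild type and 24.7, 13.0 and 8.78 CPM in Ptk6-/- males, but 4.53, 7.46 and 5.10 CPM and 7.59, 4.72 and 7.26 CPM in the females, which overlapped. Its adjusted p by edgeR was 0.0661 in male controls, 0.367 in female controls and above 0.9 after succinate in either sex (0.999933 and 0.960585). Its span overlaps 9230112E08Rik by 741 bases on the same strand. Col20a1 lies at chr2:180628328-180659507, 176007 bases from Ptk6 on the same chromosome. Col9a3, a FACIT chain at 571532 bases from Ptk6, had a log2 fold change of -0.17 (SE 0.65) in male and 0.04 (SE 1.13) in female controls. Col20a1 was singled out after its values were seen.

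The next question was what 7 days of succinate did in each genotype and sex. In wild type males no gene of any kind was called (0% of 19183 genes tested). Col5a3, of minor type V fibrils, had 10.2, 10.6 and 10.4 CPM in the controls and 7.10, 7.85 and 10.1 CPM after succinate (log2 fold change -0.32, SE 0.23). Col7a1, of anchoring fibrils, had 4.69, 4.204 and 5.81 CPM against 5.15, 8.82 and 9.79 CPM (log2 fold change 0.68, SE 0.31). Both had an edgeR adjusted p = 0.947. They had the smallest p of their classes.

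Among the abundant chains, replicates 2 and 3 lay below every control for Col3a1, Col4a1 and Col4a2. After succinate, Col1a1 had 87.7, 62.3 and 64.4 CPM, Col1a2 85.1, 60.6 and 82.4 CPM and Col3a1 178, 109 and 122 CPM in wild type males. Col4a1 had 118, 69.0 and 73.2 CPM, Col4a2 80.2, 54.4 and 56.6 CPM and Col18a1 40.4, 32.5 and 27.1 CPM. Replicate 1 was the highest mouse for all 6 genes. Of 36 genes tested 12 were higher and 24 lower (52.5% of all genes were higher), none at an unadjusted p under 0.05 (4.07% of all genes). Without overlap 0 were higher (4.62% of all genes) and 1, Col5a3, was lower (4.15%), and the medians were -0.13 for fibrillar and -0.25 for basement membrane genes. With any 1 library left out these medians ran from -0.25 to 0.06 and from -0.64 to -0.09. Without replicate 1 of the treated mice Col3a1, Col4a1 and Col4a2 had log2 fold changes of -0.58, -0.51 and -0.51 with adjusted p = 0.0473, 0.0345 and 0.0295 by edgeR, below 2-fold. By voom on all 6 libraries their adjusted p-values were 0.0248, 0.0345 and 0.0309. Without replicate 1 Col4a6 and Col9a2 were called, with log2 fold changes of -2.03 and 1.64 (edgeR adjusted p = 0.0325 and 0.0399). The share of all genes called in that fit is not given here.

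In Ptk6-/- males the values after succinate were lower than in the controls for most collagen genes. Col6a3 had 32.1, 38.8 and 49.7 CPM after succinate, against 96.0, 65.2 and 71.8 CPM in the controls, with no overlap (log2 fold change -0.93, SE 0.24, edgeR adjusted p = 0.600). Its mean after succinate, 40.2 CPM, matched the 40.2 CPM of the untreated wild type males. Col15a1 had 11.5, 13.5 and 15.9 CPM against 26.8, 16.7 and 19.2 CPM (log2 fold change -0.58, SE 0.26), and Col5a1 had 29.1, 26.3 and 31.1 CPM against 44.3, 32.7 and 39.1 CPM (log2 fold change -0.39, SE 0.21), each without overlap.

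For the abundant type IV chains Col4a1 and Col4a2 the groups overlapped, and the rarer Col4a3 and Col4a4 were lower without overlap. Col4a1 had 63.9, 108 and 139.5 CPM and Col4a2 had 72.4, 84.0 and 105 CPM after succinate. Col18a1 had 25.8, 35.5 and 47.5 CPM. Among fibrillar chains, Col1a1 had 118, 79.7 and 94.4 CPM, Col1a2 69.1, 62.0 and 80.6 CPM and Col3a1 91.9, 130.1 and 186 CPM. Replicate 1, the library with the fewest counts, was the highest of its group for Col1a1 and the lowest for Col3a1, Col4a1, Col4a2 and Col18a1.

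Of 36 genes tested in Ptk6-/- males 29 were lower and 7 higher after succinate (42.9% of all genes were higher), and none was called (0% of all genes). Without overlap 7 of 36 lay lower, against 12% of all genes, and 0 higher, against 11%, and 2 had an unadjusted p under 0.05 (7.75% of all genes), both lower. All 9 basement membrane genes were lower (median -0.49), as were 7 of 10 fibrillar genes (median -0.17), where the median of all genes tested was -0.10. Of the 15 basement membrane partners 14 were lower and none was called. Without replicate 1 of the treated Ptk6-/- males the median of the basement membrane genes was -0.29. Length slopes here were -0.167, 0.040 and 0.035 after succinate and 0.083 to 0.121 in the controls, and with the length offset the fibrillar median was 0.15 and the basement membrane median -0.17. With limma on log2(FPKM + 0.1) they were -0.93 and -1.16. In FPKM replicate 1 of the treated Ptk6-/- males was low, with Col4a1 at 1.97 FPKM against 10.3 and 14.1 FPKM in replicates 2 and 3. The part of this library in the FPKM medians was not tested. The interaction of genotype and succinate in males called no collagen gene among 38 (0% of all genes), and none had an unadjusted p under 0.05 (3.8% of all genes), while 9 were above 0 (44%). Col27a1 and Col7a1 had the smallest p of their classes, with log2 values of -0.33 (SE 0.34) and -0.81 (SE 0.48).

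The largest class medians of the 10 comparisons of a pair of groups were those for succinate in wild type females. Without replicate 2 of the treated mice, the library with heart muscle markers, the basement membrane median was 0.46, below the 0.54 and 0.60 of the genotype effect in male and female controls. All 9 fibrillar genes tested, 8 of 9 basement membrane genes and 4 of 5 type VI genes were higher after succinate. The exceptions were Col4a6, with 2.01, 0.756 and 2.01 CPM in the controls and 0.740, 0.324 and 1.44 CPM after succinate, and Col6a4, with 67.1, 61.7 and 63.2 CPM against 51.4, 26.2 and 56.8 CPM. Col6a4 was lower without overlap. Col1a1 had 80.0, 67.2 and 69.3 CPM in the controls and 279.9, 186 and 105 CPM after succinate (log2 fold change 1.42, SE 0.38, edgeR adjusted p = 0.550). Col3a1 had 179, 141 and 141 CPM against 364, 239.8 and 210.3 CPM, and Col1a2 had 87.2, 68.2 and 65.9 CPM against 183, 107 and 94.6 CPM. For these 3 genes every treated mouse lay above every control.

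In the basement membrane class, Col15a1 had 12.8, 9.39 and 10.2 CPM in the controls and 33.5, 40.4 and 16.8 CPM after succinate (log2 fold change 1.501, SE 0.36, edgeR adjusted p = 0.469). Col4a1 had 109, 76.4 and 92.4 CPM against 171, 236 and 111 CPM, and Col4a2 had 82.8, 63.7 and 82.1 CPM against 165, 234 and 108 CPM (log2 fold changes 0.91 and 1.16). These 3 genes did not overlap either. Col18a1 had 39.1, 24.2 and 31.4 CPM against 70.2, 28.8 and 41.7 CPM and did. Among the treated mice, replicate 1 was highest for Col1a1, Col1a2, Col3a1 and Col18a1, and replicate 2, the library with heart muscle markers, was highest for Col4a1, Col4a2 and Col15a1.

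The type VI chain Col6a2 had 136, 93.7 and 107 CPM in the control females and 477, 322 and 138 CPM after succinate (log2 fold change 1.499, SE 0.46). Col6a3 had 36.8, 24.4 and 31.8 CPM against 53.5, 52.3 and 53.1 CPM, a narrow spread in the treated mice (log2 fold change 0.79, SE 0.24). Col26a1, in contrast, had 11, 21 and 15 counts in the control and 0 in all 3 treated wild type females.

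Of 36 genes tested in wild type females 27 were higher and 9 lower after succinate (52.3% of all genes were higher). None was called, and none of the 18872 genes tested was (0%). At an unadjusted p under 0.05 were 13 higher and 1 lower, against 7.77% of all genes. Without overlap 14 of 36 lay higher, against 5.96% of all genes, and 3 lay lower, against 7.31%. All 9 fibrillar genes tested were higher, 7 without overlap, with a median of 0.78, and 8 of 9 basement membrane genes were, with a median of 1.16, against 0.03 for all genes tested. DESeq2 called Col1a1 and Col15a1 (adjusted p = 0.0377 and 0.0219), while the 0% above is of the edgeR fit.

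Single libraries weigh on these values. Without replicate 2 of the treated wild type females the basement membrane median was 0.46, and without replicate 3 it was 1.43. Without replicate 3, Col1a1, Col6a2, Col4a2, Col5a3 and Col15a1 were called, with log2 fold changes of 1.43 to 1.88. The share of all genes called in that fit is not given here. The fibrillar median was 0.54 to 0.94 with any 1 library left out. Fibroblast markers summed to 1276, 1297 and 632 CPM in the treated and to 604 to 649 CPM in the control wild type females, and smooth muscle markers to 8102, 7827 and 4193 CPM against 3473 to 4439 CPM. Of the 10 fibroblast markers Fap was at 0 in 1 of the 24 libraries, and every other one, like the 9 smooth muscle markers, had counts in all 24. The part of these markers in the collagen values was not tested.

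Other lists of the pathway were counted in wild type females after succinate, where 52.3% of all genes were higher. Of 12 genes of the fibril-associated matrix all 12 were higher, of 15 basement membrane partners 14, of 11 tested for processing and cross-linking 10, of 19 tested for modification and folding 15, of 11 for degradation 9 and of 8 receptors 4. None was called. The lysyl oxidase gene Loxl1, which cross-links matrix fibres, had a log2 fold change of 1.18 (SE 0.31), and P4ha1, of prolyl hydroxylation, one of 1.29 (SE 0.39).

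**Figure D4:**
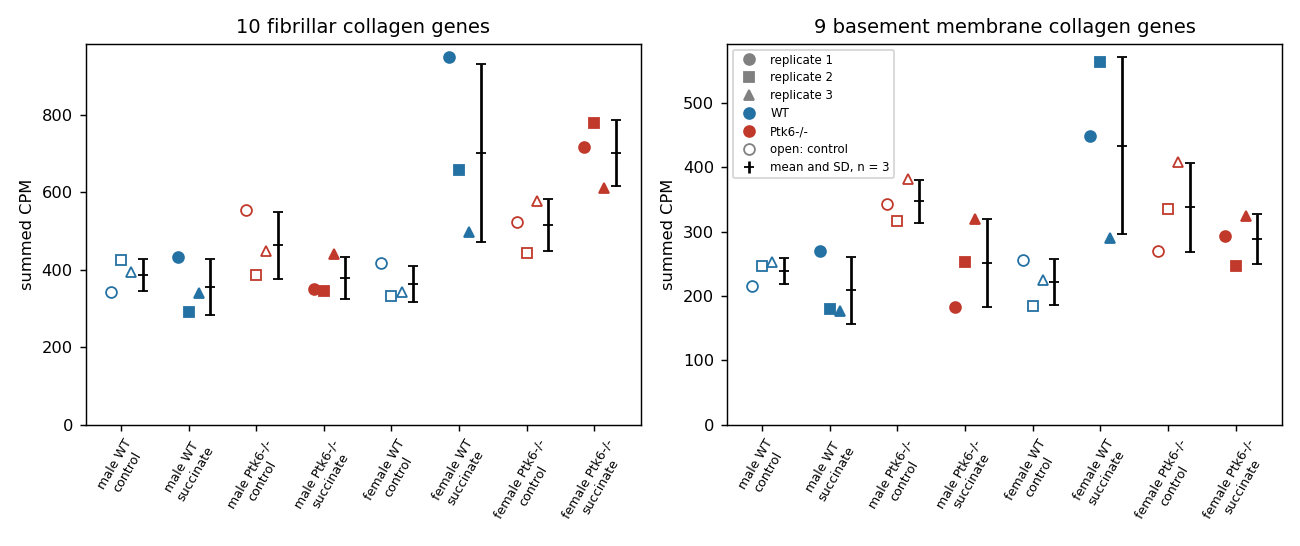
Summed CPM of the 10 fibrillar (left) and 9 basement membrane collagen genes (right) in each library by group, with mean and SD, n = 3. Fibrillar sums of the treated females run from 497 to 949.7 CPM, and basement membrane sums average 434 ± 137 CPM in treated wild type and 288 ± 38.9 CPM in treated Ptk6-/- females.

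In Ptk6-/- females some fibrillar genes were higher after succinate and most basement membrane genes were lower. Col3a1 had 232, 180.2 and 220.4 CPM in the controls and 360.0, 391 and 255 CPM after succinate, and Col1a2 had 96.0, 83.1 and 78.7 CPM against 124, 137 and 117 CPM. Col5a2, of type V fibrils, had 28.6, 26.8 and 21.6 CPM against 39.1, 45.2 and 37.3 CPM (log2 fold change 0.63, SE 0.24, edgeR adjusted p = 0.439). The groups did not overlap for these 3 genes, while Col1a1 (103, 91.9 and 211 CPM against 129, 139 and 144 CPM) overlapped.

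Type IV chains did not share that direction. Col4a1 had 120.1, 150.4 and 142 CPM in the controls and 130.4, 97.6 and 147 CPM after succinate, and Col4a2 had 79.8, 110.4 and 196 CPM against 82.1, 67.7 and 101 CPM. Col4a4, a rarer chain, had 0.803, 0.956 and 1.73 CPM against 0.701, 0.395 and 0.441 CPM (log2 fold change -1.20, SE 0.52, edgeR adjusted p = 0.471). Col18a1 had 38.7, 40.3 and 45.3 CPM against 46.9, 48.5 and 41.2 CPM.

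The summed fibrillar CPM was 515 ± 67.4 (SD, n = 3) in control and 702 ± 85.0 in treated Ptk6-/- females, and the summed basement membrane CPM was 338 ± 68.6 and 288 ± 38.9. Within libraries the fibrillar sum was 1.33 to 1.93 times the basement membrane sum in the controls and 1.88 to 3.15 times after succinate. Of 36 genes tested 18 were higher and 18 lower (47.2% of all genes were higher), and none was called, against 0.0879% of all genes. Without overlap 7 of 36 lay higher (11.2% of all genes) and 4 lower (10.1%), and at an unadjusted p under 0.05 were 3 and 2 (10.7% of all genes). The medians were 0.11 for fibrillar and -0.64 for basement membrane genes, though the latter was 0.17 and 0.14 with limma on FPKM. Without replicate 3 of the Ptk6-/- controls, which stood apart, the basement membrane median was -0.21. With any 1 library left out it was -0.77 to -0.21, and the fibrillar median was 0.04 to 0.31. Of 20 genes for collagen modification and folding 17 were higher and 8 did not overlap upward, among them P4ha1, P4ha2 and the collagen chaperone Serpinh1 (log2 fold changes 1.31, 0.99 and 0.79), and of 15 basement membrane partners 11 were lower. No gene of either list was called. Fibroblast markers summed to 663 to 1163 CPM after succinate and 438 to 501 CPM in the controls, and the part of this was not tested.

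**Figure D5:**
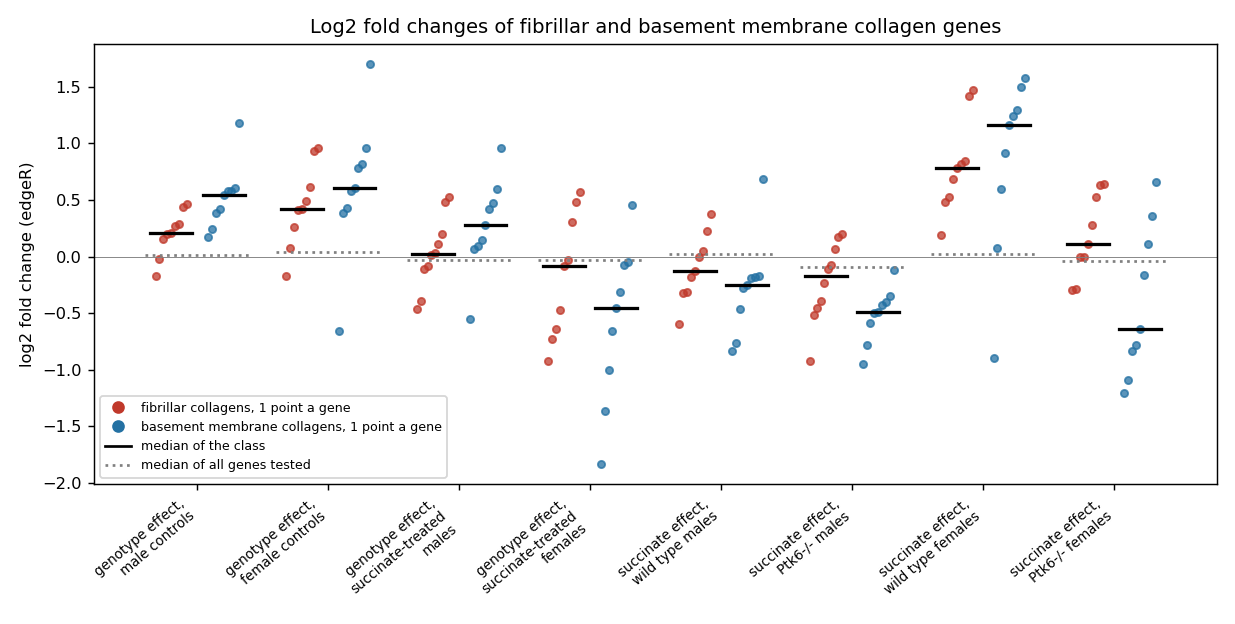
Log2 fold changes (y axis, edgeR) of fibrillar (red) and basement membrane (blue) collagen genes in 8 comparisons, 1 point a gene, with the median of each class and of all genes tested. In treated wild type females both medians are above 0 (0.78 and 1.16), and in treated Ptk6-/- females the basement membrane median is -0.64 while the fibrillar one is 0.11.

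The genotypes were also compared after succinate. Ptk6 itself was not called there, with log2 fold changes of -5.25 in males and -4.65 in females (edgeR adjusted p = 0.141 and 0.779). A missing call in these comparisons therefore does not show that levels were equal. In treated males Col5a3 had 7.10, 7.85 and 10.1 CPM in wild type and 9.05, 14.0 and 12.3 CPM in Ptk6-/- mice, and Col4a2 had 80.2, 54.4 and 56.6 CPM against 72.4, 84.0 and 105 CPM. These had the smallest p of their classes (log2 fold changes 0.53, SE 0.32, and 0.48, SE 0.30), and both overlapped. Of 36 genes 24 were higher and 12 lower in Ptk6-/- males (47.3% of all genes were higher), 1 with an unadjusted p under 0.05 (2.72% of all genes), and none was called (0% of all genes). Without overlap 1 was higher (2.78% of all genes) and 1 lower (5.88%).

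In treated females the Ptk6-/- mice had lower values for most basement membrane genes, and a fibrillar median near 0. Col4a2 had 165, 234 and 108 CPM in wild type and 82.1, 67.7 and 101 CPM in Ptk6-/- mice, with no overlap (log2 fold change -1.0001, SE 0.36). Col4a4 had the smallest p of its class, with 0.833, 3.47 and 1.31 CPM against 0.701, 0.395 and 0.441 CPM (log2 fold change -1.83, SE 0.64). The 3.47 CPM came from replicate 2, the library with heart muscle markers, and without it the log2 fold change was -1.08. Col27a1, a fibrillar gene whose longest run of triplets is 217, had 15.6, 18.8 and 14.2 CPM against 9.28, 11.4 and 8.58 CPM (log2 fold change -0.73, SE 0.28). All 3 had an edgeR adjusted p = 0.931.

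Of 36 genes tested in treated females 12 were higher and 24 lower in Ptk6-/- mice (47.1% of all genes were higher), 3 with an unadjusted p under 0.05 (4.52% of all genes), all lower, and none was called (0% of all genes). Without overlap 2 were higher (6.31% of all genes) and 3 lower (4.47%). The basement membrane median was -0.46, and -0.20 without replicate 2 of the treated wild type females. The fibrillar median was -0.08, and -0.21 to 0.17 with any 1 library left out. The interaction of genotype and succinate in females, which asks whether the succinate effect differed by genotype, had 39 collagen genes tested, 8 of them lower and 1 higher at an unadjusted p under 0.05 (6.46% of all genes), and none was called (0%). Of the 39, 14 were above 0 (47.1% of all genes). Col4a2 had an interaction of -1.76 (SE 0.51) and Col1a1 one of -1.39 (SE 0.53), both on the log2 scale with edgeR adjusted p = 0.752. The medians were -0.47 for 9 fibrillar and -1.11 for 9 basement membrane genes, and the latter was -0.77 without replicate 2 of the treated wild type females. This comparison shares its libraries with those above and adds no independent values.

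Sex was compared in the controls alone. In wild type controls females had lower Col15a1, with 12.8, 9.39 and 10.2 CPM against 13.3, 16.8 and 16.1 CPM in males (log2 fold change -0.55, SE 0.18, edgeR adjusted p = 0.258), and Col5a3 with 8.49, 6.11 and 9.43 CPM against 10.2, 10.6 and 10.4 CPM (log2 fold change -0.41, SE 0.20). Of 36 genes 12 were higher and 24 lower in females (51.8% of all genes were higher), 1 and 4 of them at an unadjusted p under 0.05 (15.3% of all genes), and none was called (0.0422% of all genes). Without overlap 4 were higher (15% of all genes) and 5 lower (8.56%). In Ptk6-/- controls 14 were higher and 22 lower (52.2% of all genes were higher), with none at an unadjusted p under 0.05 (3.24% of all genes) and none called (0.0311%). Without overlap 1 was higher (4.17% of all genes) and 4 lower (6.63%). Col1a1 had 103, 91.9 and 211 CPM in females and 90.1, 83.1 and 89.6 CPM in males there (log2 fold change 0.65, SE 0.33), and Col7a1 had 2.79, 5.29 and 2.40 CPM against 3.52, 7.09 and 7.06 CPM (log2 fold change -0.71, SE 0.41).

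How far genes ranged over the 24 libraries differed by gene. Col6a2 spanned 5.09-fold, Col1a1 4.49-fold and Col3a1 4.25-fold from the lowest to the highest library, and Col27a1, with 8.58 to 18.8 CPM, 2.20-fold. Of the 26 genes with at least 10 counts everywhere, 6 peaked in replicate 1 and 7 in replicate 2 of the treated wild type females, 4 in replicate 1 of the male Ptk6-/- controls and 4 in replicate 2 of the treated Ptk6-/- females. The lowest CPM fell most often, for 5 genes, in replicate 2 of the treated wild type males.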

How the data were processed

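RNA of the distal jejunum was sequenced from 24 mice in 8 groups of 3, grouped by the labels. The authors trimmed reads with Cutadapt, mapped them with HISAT2 and assembled them with StringTie, and deposited raw counts per gene and FPKM values from StringTie and ballgown. The program that counted reads, and whether it used strand, are not given in the sources used here. 

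The deposited counts were fitted by edgeR 4.0.16 in R 4.3.3 (TMM, quasi-likelihood), for genes that reached 10 counts in 3 or more libraries of a comparison. Calls needed an adjusted p under 0.05 and a fold change of at least 2, the study's thresholds. DESeq2 1.42.0, which the study names, limma 3.58.1 (voom, and log2(FPKM + 1)), other filters and size factors, a length offset, a replicate block, 1 fit for all libraries and each library left out were alternatives. On data simulated for male controls the test recovered 71% of 200 genes changed by 2 on the log2 scale, 11% for succinate in Ptk6-/- females, and 0.5% for the interaction in males. FPKM was used for levels. Standard errors of edgeR fits were computed from the log2 fold change and its F statistic. P-values set the difference between groups against the spread between mice.

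The members and lists were chosen with earlier results of these data known. Named were the 3 most abundant fibrillar and basement membrane genes and, in each comparison, the gene of either class with the smallest p. Of other lists, called genes were named first, and further genes were named after their values were seen. Codons were read from GENCODE transcripts and promoters from RefSeq, 33 of 41 genes matching. Results for some items are not reported here.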

Additional observations from a re-analysis of the deposited data

Results flagged for a closer look

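For 2 genes the treated and control mice did not overlap in CPM in either sex, and the direction was opposite in males and females. They came from a search of all collagen genes over several pairs of comparisons, and the share of all genes doing so was not counted. Of all genes, 4.15% were lower without overlap in wild type males and 5.96% higher in wild type females. In Ptk6-/- males and females these shares were 12% and 11.2%. Col5a3 was lower after succinate in wild type males (log2 fold change -0.32) and higher in wild type females (log2 fold change 1.47). In males the highest treated mouse (10.1 CPM) was nearly level with the lowest control (10.2 CPM). In FPKM these groups overlapped through replicate 1 of the controls, at 0.518 FPKM against 1.23 and 1.195 FPKM in replicates 2 and 3. In females the highest treated mouse (36.4 CPM) was replicate 2, the library with heart muscle markers, and without it the log2 fold change was 0.92. Col15a1 was lower after succinate in Ptk6-/- males (log2 fold change -0.58) and higher in Ptk6-/- females (log2 fold change 0.36), and in FPKM the female groups overlapped. The difference between the sexes was not tested for either gene, and neither was called in either sex.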

How the results depend on the processing

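No collagen gene was called by edgeR in the 13 comparisons. Voom with quality weights called 1 in male controls (Col4a3), 4 in female controls (Col26a1, Col4a5, Col6a3 and Col4a3), 1 between genotypes in treated males (Col4a6) and 3 for succinate in wild type males (Col7a1, Col4a6 and Col9a2). For succinate in wild type females DESeq2 called 2 and the fit of all 24 libraries called 1. With no fold change threshold 3 were called in male controls. With 1 library left out, calls were 0 to 3 in female controls, 0 to 2 for succinate in wild type males and 0 to 5 in wild type females. The shares of all genes called under these settings are not given here. The replicate numbers do not pair the mice (correlations of same-numbered libraries ran from -0.479 to 0.337), and with the replicate block 0 collagen genes were called in all comparisons. In male controls Col6a3, Col4a1 and Col4a2 then had adjusted p = 0.0596, 0.0654 and 0.0756, and without replicate 3 of the Ptk6-/- males 0.123, 0.134 and 0.147 by edgeR. In the fit of all 24 libraries each had adjusted p = 0.930, and each was under 0.05 in 5 of 12 other settings and in 2 of 6 fits with 1 library left out.

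Both medians stayed above 0 under all 12 other settings for genotype in female controls and succinate in wild type females, and below 0 for the interaction in females. The fibrillar median in male controls was below 0 under 2 of 12 settings, both with the length offset. For succinate in wild type males both medians were above 0 in 3 of 12, for genotype in treated males the fibrillar one was below 0 in 9 and the basement membrane one in 3, and for sex in wild type controls they were above 0 in 2 and 3. For succinate in Ptk6-/- females the basement membrane median was above 0 in 2 of 12, both with FPKM. The cause of these changes was not tested. In data simulated for succinate in Ptk6-/- females and for the interaction in males, 11% and 0.5% of the changed genes were recovered, so there a missing call does not show that levels were equal. The same holds between genotypes after succinate, where Ptk6 itself was not called in either sex.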
